A study of Mus musculus with 3 samples.

Results

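The genes described here encode the Wnt ligands and the receptors that bind them, 34 genes among the 23284 symbols of RNA-seq profiles of cells sorted from mouse embryonic digits. They were chosen by name, as the 19 Wnt ligand genes, the 10 Frizzled genes (Fzd1 to Fzd10), the co-receptor genes Lrp5 and Lrp6, and the receptor genes Ror1, Ror2 and Ryk, and all 34 were found. Each of 3 cell populations was measured in 1 library. Sox9+ cells were sorted from the digits of Sox9-eGFP/+ embryos at embryonic stage e13.5, and the limb they came from is not given in the sources used here. Lgr5+ cells, labelled as interzone, and Lgr5− cells, labelled as non-interzone, were the GFP-positive and GFP-negative cells of forelimb digits of Lgr5-eGFPCreERT2/+ embryos at e14.5. All embryos are labelled C57/bl6. Each group carries 1 reporter allele and was sorted by GFP, not by position, so the Lgr5− cells are every digit cell without reporter signal. No number of embryos or cells is given in the sources used here.

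Wnts are secreted, lipid-modified proteins that bind the extracellular domain of Frizzled receptors. With the co-receptors Lrp5 and Lrp6 they stabilise beta-catenin, and through Ror1, Ror2, Ryk and Frizzleds they act on cell polarity and movement without it. In the limb, beta-catenin signalling holds back cartilage formation, and Wnt4, Wnt9a and Wnt16 are known from the joint interzone, the band of cells where a joint forms.

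Values are FPKM, fragment counts scaled by transcript length and by the size of the library, so levels can be compared between genes. The depth of the libraries is unknown. Replicates were lacking in every group, so no difference below has an error, a test or a replicate check, and what is compared is single libraries. In bulk RNA, fewer cells of a type and less RNA per cell cannot be told apart. A difference is given as the fold of FPKM + 1, which understates that of low genes. A gene is called measured in a pair of libraries at 1 FPKM or more in the higher one, and different at 2-fold or more. The 3 pairs share libraries, so their values for a gene are not independent.

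Where 3 values follow each other without names, they are those of Sox9+, Lgr5+ and Lgr5− cells in that order. Markers of each cell type were read first. Their lists were chosen with earlier results of these data known, so they are no independent check of cell identity. Of 9 interzone markers, 7 were at least 2-fold higher in Lgr5+ cells than in Lgr5− cells, with Gdf5 at 614.8 against 71.7 FPKM, while Gdf6 and Cd44 were not. The 8 cartilage markers summed to 7392 FPKM in Sox9+ cells, 3186 FPKM in Lgr5+ cells and 1986 FPKM in Lgr5− cells. Of these sums Col2a1 alone made up 5303.9, 2253.1 and 1400.8 FPKM. Among the 8 markers, 7 were highest in Sox9+ cells and 7 lowest in Lgr5− cells. Sox9 itself was highest in Lgr5+ cells, at 255, 332 and 147 FPKM. Matn1 was lowest in Lgr5+ cells, at 546, 41.5 and 93.8 FPKM. Markers of other cell types were detected too. The 12 epidermal markers summed to 64.5, 59.8 and 25.6 FPKM, the 8 muscle markers to 17.8, 100 and 26.5 FPKM, and the 6 red blood cell markers to 110, 144 and 3515 FPKM. The macrophage markers (6 genes) summed to 10.9, 79.3 and 41.9 FPKM, those of endothelium (6) to 4.22, 7.11 and 9.96 FPKM, and those of Schwann cells and melanocytes (6, with Tyrp1 at 0 throughout) to 18.1, 8.03 and 6.09 FPKM. Perichondrium and bone markers (6) summed to 968, 1357 and 1305 FPKM, of which Col1a1 alone made up 769, 1198 and 998 FPKM. The bone-lineage factors Runx2 (12, 2.1 and 10.7 FPKM), Sp7 (12.9, 0.73 and 5.07 FPKM) and Dlx5 (27.1, 3.97 and 15.7 FPKM), and also Twist1 (111, 70.3 and 223 FPKM), were lowest in Lgr5+ cells. The other 2 of these 6 markers, Col1a1 and Postn (35.5, 82 and 52.9 FPKM), were highest there. Of all summed FPKM, the rRNA precursor Rn45s made up 6.43% in Sox9+ cells and 6.13% in Lgr5− cells, but 1.86% in Lgr5+ cells.

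Ligand RNA was dominated by 3 genes in every library. Wnt5a, the main beta-catenin-independent Wnt of limb mesenchyme, stood at 39.1 FPKM in Sox9+ cells, 76.5 FPKM in Lgr5+ cells and 95.5 FPKM in Lgr5− cells. It was the highest ligand in each, and higher in both e14.5 libraries than at e13.5. Wnt11, known from cell movement and from chondrocytes before hypertrophy, stood at 14.9 FPKM in Sox9+ cells, 43.3 FPKM in Lgr5+ cells and 23.2 FPKM in Lgr5− cells, and so was highest in Lgr5+ cells. Wnt5b, a close relative of Wnt5a that acts in the growth plate, stood at 14.2, 21 and 23 FPKM in these 3 libraries. The 2 e14.5 libraries hardly differed in it. The 6 markers of hypertrophic and prehypertrophic chondrocytes summed to 237, 103 and 196 FPKM, lowest in Lgr5+ cells, where Wnt11 was highest. Of these sums Pth1r alone made up 106, 72.3 and 131 FPKM. The part of such chondrocytes in the Wnt11 values was not tested. Together Wnt5a, Wnt11 and Wnt5b made up 82.5% of the summed ligand FPKM in Sox9+ cells, 86.6% in Lgr5+ cells and 92.9% in Lgr5− cells. The sum over all 19 ligands was 82.7, 163 and 152 FPKM.

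The ligands known from the interzone were lower than these 3 in each library. Wnt4 stood at 5.88 FPKM in Sox9+ cells, 8.09 FPKM in Lgr5+ cells and 3.52 FPKM in Lgr5− cells. Wnt9a stood at 3.13, 7.17 and 3.77 FPKM. Both were highest in Lgr5+ cells, and they held nearly equal levels there. Wnt16, the third of these ligands, was low everywhere, at 1 FPKM in Sox9+ cells, 0.97 FPKM in Lgr5+ cells and 0.53 FPKM in Lgr5− cells, and did not share that order. The summed level of the 3 genes was 10 FPKM in Sox9+, 16.2 FPKM in Lgr5+ and 7.82 FPKM in Lgr5− cells, which was 12.1%, 9.98% and 5.13% of all ligand FPKM.

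Ligands known from limb ectoderm lay near or under 1 FPKM, apart from Wnt6 in Lgr5+ cells. Wnt6 stood at 1.16 FPKM in Sox9+ cells, 3.04 FPKM in Lgr5+ cells and 0.85 FPKM in Lgr5− cells. Wnt7b stood at 1.38, 0.8 and 0.23 FPKM, and was highest in the earlier cells. Wnt3, Wnt7a, Wnt10a and Wnt10b, which act in the ridge, the dorsal ectoderm and skin appendages, stayed under 1 FPKM in all libraries. The 6 ectodermal ligands summed to 3.37, 4.18 and 1.63 FPKM, and the epidermal markers had their lowest sum in Lgr5− cells as well. Of the 12 epidermal markers, 8 were highest in Lgr5+ cells and 9 lowest in Lgr5− cells. The basal keratin Krt5 stood at 4.61, 12.6 and 1.24 FPKM, but the epithelial adhesion gene Epcam stood at 6.25, 3.9 and 8.76 FPKM, and the simple-epithelial keratins Krt18 (26.9, 4.93 and 9.41 FPKM) and Krt8 (5.32, 0.77 and 1.3 FPKM) were lowest in Lgr5+ cells. Trp63, which defines the epidermal lineage, reached no more than 0.51 FPKM, and no epidermal marker was at 0 in all 3 libraries. The part of epidermal cells in the ligand values was not tested.

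Of the other ligands only Wnt2, best known from lung development, reached 1 FPKM, at 0.8 FPKM in Sox9+ cells, 1.19 FPKM in Lgr5+ cells and 0.85 FPKM in Lgr5− cells. In all, 10 of the 19 ligands stayed under 1 FPKM in every library, at 0.53 FPKM or less. They were Wnt1, Wnt2b, Wnt3, Wnt3a, Wnt7a, Wnt8a, Wnt8b, Wnt9b, Wnt10a and Wnt10b. None was listed at 0 in all 3 libraries, but 7 were listed at 0 in at least 1. Ligands at 1 FPKM or more numbered 8 in Sox9+ cells, 7 in Lgr5+ cells and 5 in Lgr5− cells, and 5 passed in every library: Wnt4, Wnt5a, Wnt5b, Wnt9a and Wnt11.

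**Figure D1:**
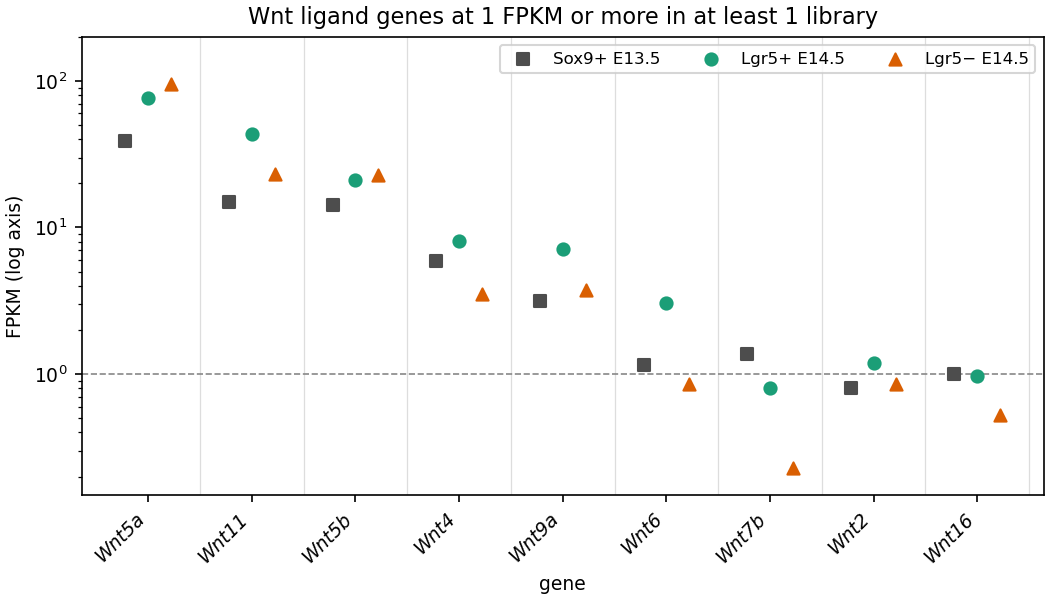
FPKM on a log axis of the 9 Wnt ligand genes that reached 1 FPKM (dashed line) in at least 1 library, with 1 point per library and no replicates. Wnt5a, Wnt11 and Wnt5b lie above the others in each library, and Wnt11, Wnt4, Wnt9a, Wnt6 and Wnt2 are highest in Lgr5+ cells.

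Each of the 15 receptor genes reached 1 FPKM in at least 1 library, and 14 did in every library, the exception being Fzd5. Among Fzd1, Fzd2 and Fzd7, which form a subfamily, Fzd2 was the highest, at 71.2 FPKM in Sox9+ cells, 84.3 FPKM in Lgr5+ cells and 114.8 FPKM in Lgr5− cells. Fzd1 stood at 35.6, 24.6 and 34.5 FPKM, and was lowest in Lgr5+ cells. Fzd7, a receptor known from mesenchyme and from muscle satellite cells, stood at 29.9, 13.1 and 19.6 FPKM. It too was lowest in Lgr5+ cells, the library in which the muscle markers had their highest sum. The part of muscle cells in the Fzd7 values was not tested.

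Fzd9, Fzd4 and Fzd8 had their lowest level in Lgr5− cells. Fzd9 stood at 77.9 FPKM in Sox9+ cells, 74.8 FPKM in Lgr5+ cells and 41.1 FPKM in Lgr5− cells. Fzd4, which also binds the non-Wnt ligand norrin, stood at 41.2, 36.7 and 20.6 FPKM. Fzd8 stood at 38.9, 53.4 and 21.7 FPKM. The summed FPKM of cartilage markers and that of epidermal markers were also lowest in Lgr5− cells, and that of red blood cell markers was highest there. What these cells contribute was not tested. Fzd10, which is grouped with Fzd9 and Fzd4 by sequence, went against them, at 1.6 FPKM in Sox9+ cells, 1.17 FPKM in Lgr5+ cells and 6.33 FPKM in Lgr5− cells. Fzd5, the relative of Fzd8, was scarce at 1.43, 1.23 and 0.84 FPKM. Fzd3 (3, 2.86 and 3.25 FPKM) and Fzd6 (2.03, 2.93 and 1.62 FPKM), both known from planar cell polarity, were low in every library.

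Of the co-receptors, Lrp6 stood at 15.3 FPKM in Sox9+ cells, 15 FPKM in Lgr5+ cells and 13.8 FPKM in Lgr5− cells. Lrp5, its relative known from bone mass, stood at 3.04, 2.09 and 2.55 FPKM, so that Lrp6 was 5.04, 7.2 and 5.39 times as abundant as Lrp5. Ryk, a receptor with an inactive kinase domain, varied little, at 51.5, 49.6 and 48 FPKM. Ror2, the receptor tyrosine kinase that mediates Wnt5a effects in limb cartilage, stood at 48.1 FPKM in Sox9+ cells, 28.5 FPKM in Lgr5+ cells and 39.3 FPKM in Lgr5− cells. Ror1 stood at 6.38, 5.51 and 6.91 FPKM. Ror2 was thus 5.18 to 7.53 times as abundant as Ror1, and both were lowest in Lgr5+ cells.

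**Figure D2:**
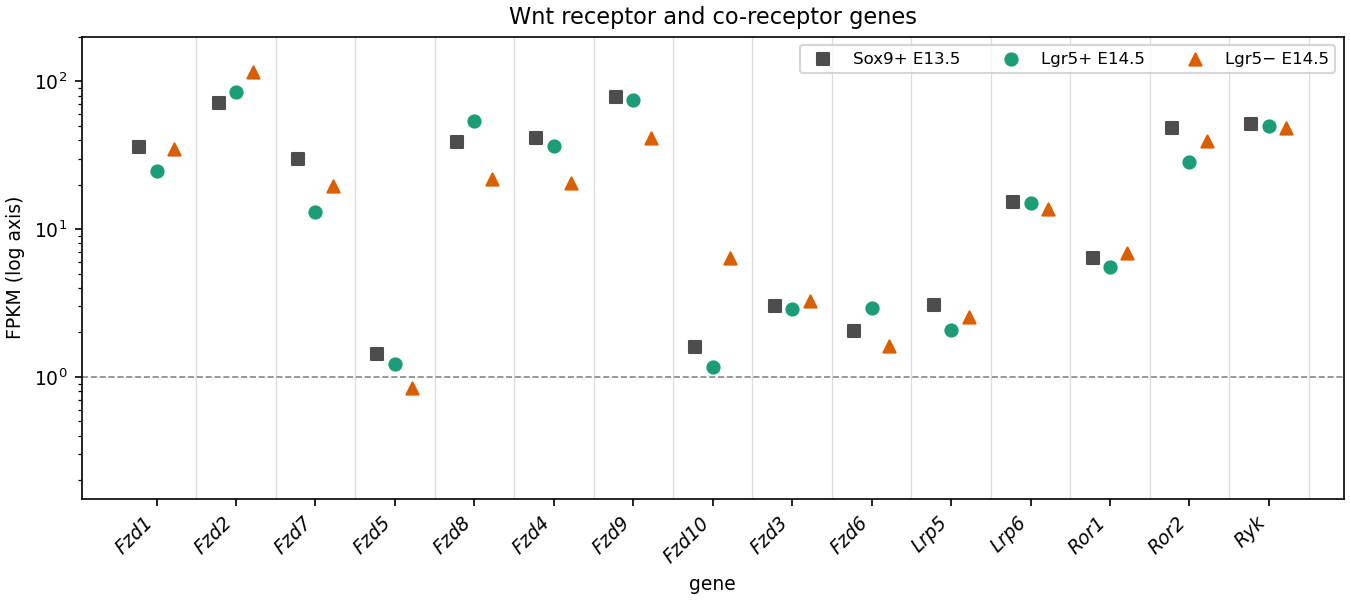
FPKM on a log axis of the 15 Wnt receptor and co-receptor genes, grouped by family, with 1 point per library, no replicates and a dashed line at 1 FPKM. Fzd8, Fzd4 and Fzd9 are lowest in Lgr5− cells, Fzd10 is highest there, and Lrp6 and Ryk lie nearly level.

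Upstream sequence is shown for Wnt4, Wnt6, Wnt9a and Wnt11, the ligands above 2 FPKM that were highest in Lgr5+ cells. The windows hold up to 250 bases before the annotated start, come from RefSeq on GRCm38.p6, are written 5′ to 3′ on the gene's strand, and end where either RefSeq or GENCODE first places the gene. Of the 34 members, 24 were matched by symbol. Not in that table were Wnt5a, Wnt7b, Wnt8a, Wnt10a, Fzd2, Fzd3, Fzd6, Fzd8, Lrp5 and Lrp6. Capitals mark matches on either strand to GGGCGG (the GC box), TATAAA (the TATA box) and ATCAAAG (a TCF/LEF core, the motif read by the factors beta-catenin binds), and run together where matches adjoin or overlap.
Wnt4, chr4:137277385-137277488, plus strand: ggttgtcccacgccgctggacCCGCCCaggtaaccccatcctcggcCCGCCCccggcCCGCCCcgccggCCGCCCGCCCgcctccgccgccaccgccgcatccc
Wnt6, chr1:74771642-74771891, plus strand: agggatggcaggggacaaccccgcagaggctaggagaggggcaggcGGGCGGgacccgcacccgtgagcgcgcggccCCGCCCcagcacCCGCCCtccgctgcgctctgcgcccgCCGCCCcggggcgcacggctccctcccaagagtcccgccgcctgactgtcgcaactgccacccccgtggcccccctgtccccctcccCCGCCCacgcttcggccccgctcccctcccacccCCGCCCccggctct
Wnt9a, chr11:59306680-59306927, plus strand: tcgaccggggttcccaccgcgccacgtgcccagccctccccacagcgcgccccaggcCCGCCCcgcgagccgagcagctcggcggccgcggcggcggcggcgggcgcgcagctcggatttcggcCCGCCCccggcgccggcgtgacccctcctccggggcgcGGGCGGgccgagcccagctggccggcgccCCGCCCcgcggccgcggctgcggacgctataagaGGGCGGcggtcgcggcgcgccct
Wnt11, chr7:98834862-98835111, plus strand: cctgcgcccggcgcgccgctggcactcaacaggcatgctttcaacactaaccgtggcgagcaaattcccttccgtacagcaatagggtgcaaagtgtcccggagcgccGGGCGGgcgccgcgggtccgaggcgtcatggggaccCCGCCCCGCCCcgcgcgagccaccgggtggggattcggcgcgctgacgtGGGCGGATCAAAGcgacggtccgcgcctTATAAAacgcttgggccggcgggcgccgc
The 104 bases shown for Wnt4 were 83.7% G and C and held 5 GC boxes. The 250 bases of Wnt6 were 79.6% G and C with 6 GC boxes, and the 248 bases of Wnt9a were 84.3% with 5. The Wnt11 window, at 70.8% G and C, held 4 GC boxes, a TCF/LEF match beginning 51 bases before the start and a TATA box beginning 29 bases before it. Wnt11 has 2 starts in the table, and the one shown agrees in position with the annotated gene start. Over the 27 whole windows of 250 bases of the matched members, 21 held a GC box, against 32.7% of all 32851 windows in the table, 3 held a TATA box (12.4% of all) and 2, those of Wnt11 and Wnt5b, held ATCAAAG (3.21% of all). The median G and C content was 71.6% in the members' windows and 52.4% in all. A match is a match of letters and no evidence of binding, and a window without one says nothing about the factor.

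Lgr5+ and Lgr5− cells of the same day and line differed by 2-fold or more in 4 members, ligands and Frizzleds. Wnt4, Wnt6 and Fzd8 were at least 2-fold higher in Lgr5+ cells and Fzd10 at least 2-fold lower. These were 3 (13.6%) and 1 (4.55%) of 22 measured members, and 18 lay within 2-fold. Of all 12438 genes measured in this pair, 3.64% were at least 2-fold higher and 1.89% at least 2-fold lower. The other 12 members, all ligands, were under 1 FPKM in both libraries. The median log2 ratio of the measured members was 0.08, and that of all measured genes was 0.08 as well.

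Wnt4 (GRCm38 chromosome 4, 137277489 to 137299726, plus strand) was 2.01-fold higher in Lgr5+ cells and so sat at the threshold. It fell short of 2-fold in 3 of 8 alternative settings, with log2 ratios of 0.94 with median of ratios, 0.87 with upper quartile and 0.97 with the sum without ribosomal RNA precursor and haemoglobin genes. Of the scalings, only rescaling to TPM kept it past 2-fold, at a log2 ratio of 1.12. The other alternatives could not undo a call by its ratio, as another minimum leaves the ratio unchanged and a smaller pseudocount enlarges it. Wnt6 (chromosome 1, 74771892 to 74785322, plus strand) was 2.18-fold higher, at 3.04 against 0.85 FPKM. Fzd8, which pairs with Lrp6 in beta-catenin signalling, was 2.4-fold higher, at 53.4 against 21.7 FPKM. Fzd10 (chromosome 5, 128600844 to 128604093, plus strand) was 3.38-fold lower, at 1.17 against 6.33 FPKM, the largest difference of any member in any pair. The Fzd8 and Fzd10 differences stayed past 2-fold in all 8 alternatives, and that of Wnt6 in the 7 in which it was measured. For these genes too, only the scalings could have brought the ratio under 2-fold.

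Just under 2-fold, Wnt11 was 1.83-fold, Fzd9 1.8-fold, Fzd4 1.75-fold and Wnt9a 1.71-fold higher in Lgr5+ cells. Fzd1 (1.39-fold), Fzd2 (1.36-fold) and Fzd7 (1.46-fold) were all lower there, as were Ror2 (1.37-fold) and Wnt5a (1.25-fold). Lrp6 (1.09-fold) and Ryk (1.03-fold) were nearly equal, and their sign changed with the scaling. Of the 7 measured ligands 5 were higher and 2 lower, with a median log2 ratio of 0.78. Among these 5, Wnt2 and Wnt6 reached 1 FPKM only in Lgr5+ cells, where they were higher. With no filter on low values 11 of 16 ligands were higher and 5 lower, and the median was 0.05. Of the 15 receptors 7 were higher and 8 lower, or 5 and 10 with upper quartile scaling. That scaling moved the median log2 ratio of all measured genes from 0.08 to −0.07. Of the measured markers, 7 of 9 for interzone, 6 of 10 for epidermis, 7 of 7 for muscle and 3 of 6 for macrophages were at least 2-fold higher in Lgr5+ cells, and none in these lists was 2-fold lower. Of 6 perichondrium and bone markers 4 were at least 2-fold lower in Lgr5+ cells. The other 2, Col1a1 and Postn, were higher there by less than 2-fold. Of 5 red blood cell markers all 5 were at least 2-fold lower. The part of such cells in these values was not tested.

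From Sox9+ cells at e13.5 to Lgr5+ cells at e14.5, most members stayed within 2-fold. Wnt11 was 2.79-fold higher in Lgr5+ cells and Fzd7 2.19-fold lower, each 4.17% of 24 measured members, beside 4.33% and 3.96% of all 12492 measured genes. The median log2 ratio of the members was −0.04, against 0.06 for all measured genes. Wnt11 (chromosome 7, 98835112 to 98855195, plus strand) stood at 43.3 against 14.9 FPKM, and Fzd7 (chromosome 1, 59482424 to 59486955, plus strand) at 13.1 against 29.9 FPKM. Both stayed past 2-fold in all 8 alternative settings, of which only the scalings could have brought them under it.

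Wnt9a (1.98-fold), Wnt5a (1.93-fold) and Wnt6 (1.87-fold) were higher in Lgr5+ cells by just under 2-fold, and each passed that mark in some alternatives. Their log2 ratios after rescaling to TPM were 1.2, 1.11 and 1.18. In all, 7 of the 9 measured ligands were higher in Lgr5+ cells, with a median log2 ratio of 0.53. The 2 lower ones were Wnt7b (1.32-fold) and Wnt16 (1.02-fold, a sign that changed with the scaling). Wnt2 reached 1 FPKM only in Lgr5+ cells, and Wnt7b and Wnt16 only in Sox9+ cells. The ligand median depended on the filter. With no filter on low values it was 0.07, with 11 of 18 ligands higher and 7 lower. At a minimum of 5 FPKM it was 0.95, with all 5 higher. Of the 15 receptors 12 were lower, with a median log2 ratio of −0.12, but only 8 were lower in TPM, with a median of −0.01, and 8 with the sum without ribosomal RNA precursor and haemoglobin genes, with a median of −0.08. The median of all measured genes moved as well, from 0.06 to 0.21 in TPM and 0.14 with that sum. The receptors' median thus stayed below that of all genes in these settings. Among the receptors, Ror2 was 1.66-fold and Fzd1 1.43-fold lower, while Fzd9, Fzd3, Lrp6 and Ryk differed by 1.04-fold or less and changed sign with the scaling. Fzd8 (1.37-fold), Fzd6 (1.3-fold) and Fzd2 (1.18-fold) were the 3 receptors that were higher. Day and reporter line, and possibly limb, differ together between the Sox9+ library and both others and cannot be told apart.

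Lgr5− cells at e14.5 differed from Sox9+ cells at e13.5 by more than 2-fold in Wnt5a and Fzd10. Both were higher in Lgr5− cells, 2 (8.7%) of 23 measured members, and none was 2-fold lower, beside 3.08% and 4.94% of all 12482 measured genes. Wnt5a (chromosome 14, 28504750 to 28527448, plus strand) was 2.4-fold higher, at 95.5 against 39.1 FPKM, and Fzd10 2.82-fold higher, at 6.33 against 1.6 FPKM. Both calls held in all 8 alternative settings, of which only the scalings could have undone them. The median log2 ratio of the members was −0.19, against −0.01 for all measured genes.

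Fzd2 (1.6-fold), Wnt5b (1.57-fold) and Wnt11 (1.52-fold) were also higher in Lgr5− cells. Fzd4 (1.96-fold), Wnt7b (1.93-fold), Fzd9 (1.88-fold), Fzd8 (1.75-fold) and Wnt4 (1.52-fold) were lower. Wnt7b passed 2-fold at smaller pseudocounts, with log2 ratios of −2.17 at 0.1 FPKM and −1.36 at 0.5 FPKM, and also in TPM, at −1.23. Its levels were 0.23 FPKM in Lgr5− cells and 1.38 FPKM in Sox9+ cells. Of the receptors 11 of 15 were lower, or 9 in TPM, and of the 8 measured ligands 4 were higher and 4 lower. Red blood cell markers summed to 3515 FPKM in Lgr5− cells and 110 FPKM in Sox9+ cells. With the haemoglobin genes and Rn45s left out of the sum the members' median log2 ratio was −0.06. The median of all measured genes moved too, from −0.01 to 0.11. In TPM, which keeps those genes in the sum, the 2 medians were −0.07 and 0.11.

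**Figure D3:**
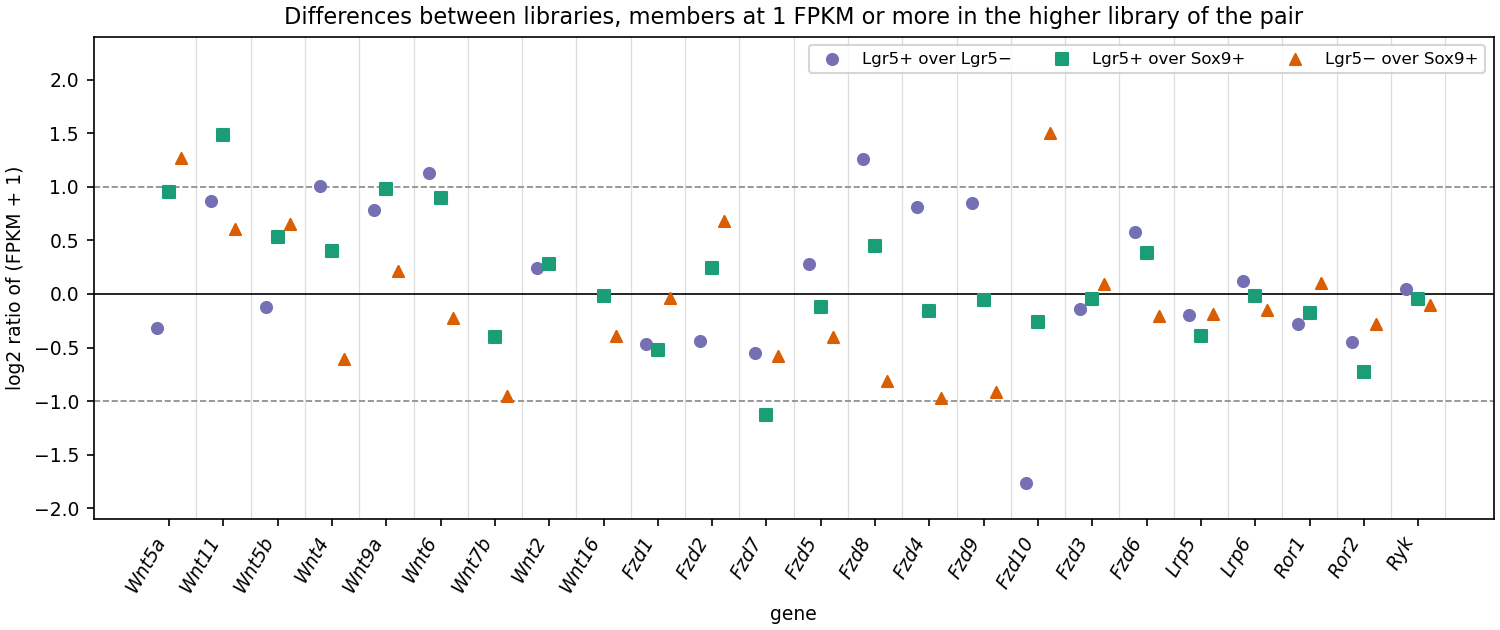
Log2 ratios of FPKM + 1 for the members at 1 FPKM or more in the higher library of each pair, with 1 library per group and dashed lines at 2-fold. Fzd10 lies furthest from 0, lower in Lgr5+ than in Lgr5− cells (−1.76) and higher in Lgr5− than in Sox9+ cells (1.5).

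Ratios between genes of the same library do not depend on how libraries are scaled. The ratio of Wnt5a to Wnt11 FPKM was 2.63 in Sox9+ cells, 1.77 in Lgr5+ cells and 4.12 in Lgr5− cells, so Wnt11 was nearest to Wnt5a in Lgr5+ cells. Wnt5a to Wnt5b gave 2.75, 3.63 and 4.16. Among Frizzleds, Fzd2 and Fzd9 were close in Sox9+ cells (ratio 0.914) and Lgr5+ cells (1.13), but Fzd2 was 2.8 times as abundant as Fzd9 in Lgr5− cells. Fzd2 was 1.83, 1.58 and 5.29 times as abundant as Fzd8, and 2.38, 6.45 and 5.86 times as abundant as Fzd7. The ratio of Fzd9 to Fzd10 was 48.7, 63.9 and 6.49.

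By share of the summed Frizzled FPKM, which was 303 in Sox9+ cells, 295 in Lgr5+ cells and 264 in Lgr5− cells, Fzd1, Fzd2 and Fzd7 held 45.2%, 41.3% and 63.9%. Fzd4, Fzd9 and Fzd10 held 39.9%, 38.2% and 25.7%, and Fzd5 and Fzd8 held 13.3%, 18.5% and 8.53%. In the first and second of these groups Sox9+ and Lgr5+ cells lay closer to each other than to Lgr5− cells, where Fzd2 alone held 43.4%, but the share of Fzd5 and Fzd8 in Sox9+ cells was about as far from one as from the other. Wnt5a held 47.3%, 47% and 62.6% of the ligand FPKM, and Wnt11 held 18%, 26.6% and 15.2%. These shares have no replicate spread against which to read them.

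**Figure D4:**
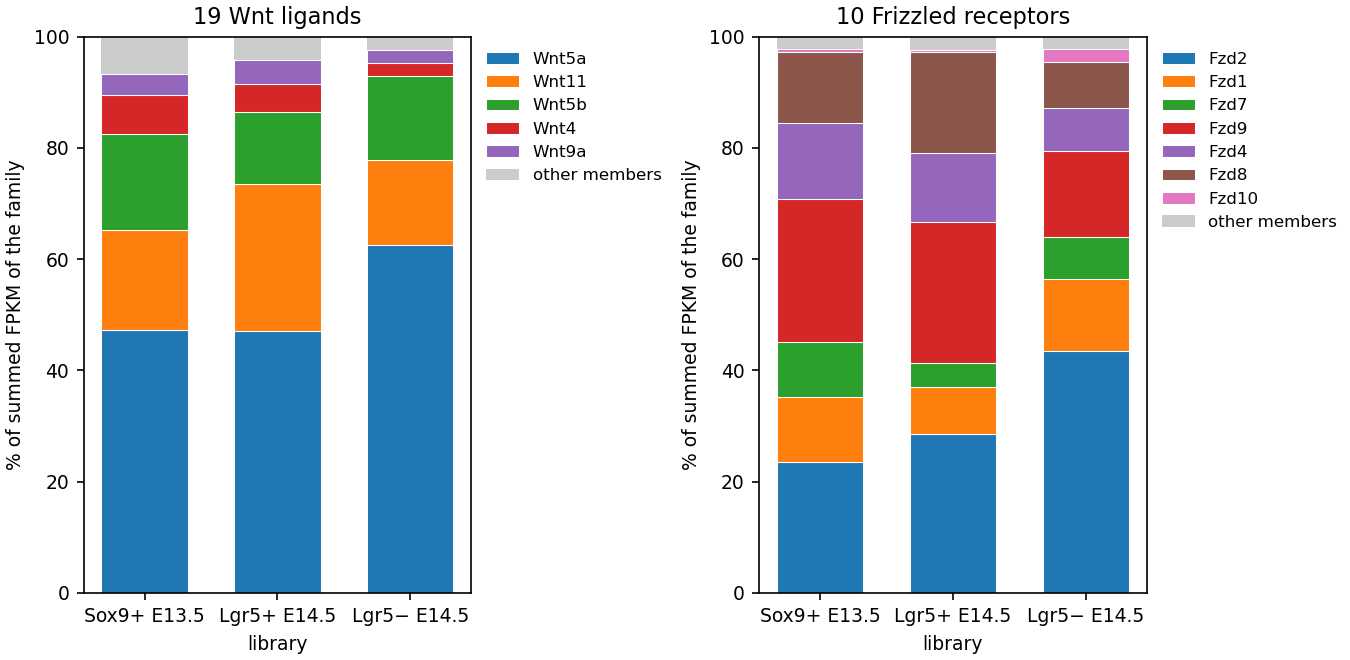
Shares, in % of the summed FPKM of each family, of the main Wnt ligands (left) and Frizzled receptors (right) in each library, with grey for the other members and no replicates. Wnt5a (62.6%) and Fzd2 (43.4%) take their highest shares in Lgr5− cells, and Wnt11 (26.6%) and Fzd8 (18.1%) in Lgr5+ cells.

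Of the ligand genes that lie side by side, only Wnt9a and Wnt6 reached 1 FPKM, so likeness between neighbours under that level cannot be read. Wnt9a and Wnt3a lie 16.2 kb apart on chromosome 11, yet Wnt9a reached 7.17 FPKM in Lgr5+ cells where Wnt3a was listed at 0. Wnt6 and Wnt10a lie 6.19 kb apart on chromosome 1, with 3.04 and 0.27 FPKM in the same library. In Lgr5− cells they had 0.85 and 0.53 FPKM, both under 1 FPKM, and cannot be ranked there. Wnt1 and Wnt10b (chromosome 15, 11.7 kb apart) stood at 0.2 and 0.19 FPKM in Sox9+ cells and were both listed at 0 in the other two. Wnt3 and Wnt9b (chromosome 11, 24.3 kb apart) stayed at 0.3 FPKM or less. The coding sequence lies in a single exon in 7 of the 10 Frizzled genes and in none of the ligand genes. An annotated gene on the opposite strand overlaps Wnt5b (Fbxl14, at 10.9, 8.66 and 9.03 FPKM), and antisense genes not listed in the files overlap Wnt5a and Wnt6. Kits of this type do not mark the strand, so reads from such overlaps cannot be told apart.

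The rest of the pathway was read from 6 lists. In the secretion list, Wls, the carrier that brings Wnts to the cell surface, stood at 47.5 FPKM in Sox9+ cells, 56.7 FPKM in Lgr5+ cells and 60.5 FPKM in Lgr5− cells, and Porcn, which lipidates them, at 5.79, 10 and 7.55 FPKM. Notum, the enzyme that removes that lipid, stood at 6.05, 1.54 and 2.46 FPKM. It was 2.78-fold lower in Lgr5+ and 2.04-fold lower in Lgr5− cells than in Sox9+ cells, and was the 1 of 3 genes in the list past 2-fold. Tiki1 and Tiki2 had no match in the files.

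Of 26 genes of beta-catenin transduction, 24 lay within 2-fold between Lgr5+ and Lgr5− cells, and the 2 that did not were lower in Lgr5+ cells. Axin2, a feedback inhibitor and widely used readout of beta-catenin signalling, stood at 2.12 FPKM in Sox9+ cells, 3.13 FPKM in Lgr5+ cells and 8.94 FPKM in Lgr5− cells. It was 2.41-fold lower in Lgr5+ than in Lgr5− cells and 3.19-fold higher in Lgr5− than in Sox9+ cells. Of the members that reached 1 FPKM, 2 ligands (Wnt5a and Wnt5b) and 4 receptors (Fzd2, Fzd3, Fzd10 and Ror1) were also highest in Lgr5− cells. Others, such as Fzd4, Fzd8 and Fzd9, were lowest there. A link between any member and Axin2 was not tested. Lef1, a DNA-binding partner of beta-catenin, stood at 30.5, 12.7 and 36.3 FPKM, and was lowest in Lgr5+ cells. Beta-catenin itself (Ctnnb1) varied little, at 138.6, 122.9 and 137.2 FPKM. Against Sox9+ cells, 1 transduction gene (Lef1) was lower and none higher in Lgr5+ cells, and 1 (Axin2) was higher and none lower in Lgr5− cells.

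None of 13 measured planar cell polarity genes was 2-fold different between Lgr5+ cells and either other library. Prickle2 was 2.18-fold higher in Lgr5− than in Sox9+ cells, 1 of 12 measured. Ptk7, a Wnt co-receptor of this pathway, stood at 81.1, 67.6 and 101.1 FPKM.

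In the list of R-spondins and their receptors, which set how long Frizzleds stay at the surface, Lgr5 is the gene of the sort and stood at 26.8 FPKM in Lgr5+ cells. Lgr4 was 2.63-fold higher and Rspo3 2.9-fold lower in Lgr5+ than in Lgr5− cells. Of 6 measured genes 2 were higher, Lgr4 and Lgr5 itself, and 1 was lower. The Lgr5 difference follows from the sort and is no finding. The ubiquitin ligase gene Znrf3, which removes Frizzleds, hardly varied, at 3, 3.42 and 2.91 FPKM, and Rnf43 stayed at 0.43 FPKM or less. Against Sox9+ cells, 1 of 4 measured genes was higher in Lgr5+ cells, the sort gene Lgr5, and 1 was lower, Rspo3. None of 6 passed 2-fold between Lgr5− and Sox9+ cells.

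Of 9 measured secreted antagonists, 2 were at least 2-fold higher and 3 at least 2-fold lower in Lgr5+ than in Lgr5− cells. In Lgr5+ cells 2 of 10 were higher and 2 lower than in Sox9+ cells, and in Lgr5− cells 3 and 3 of 10. Dkk2, which binds Lrp6, stood at 2.92 FPKM in Sox9+ cells, 12 FPKM in Lgr5+ cells and 30 FPKM in Lgr5− cells. Frzb, a secreted Frizzled-like protein of cartilage, stood at 20.8, 2.12 and 1.77 FPKM. Dkk3 stood at 36.2, 164.8 and 37.7 FPKM, and Sfrp2 at 363.3, 450.7 and 203.1 FPKM. They are the 2 that were higher in Lgr5+ than in Lgr5− cells. Both are also among the interzone markers, so they repeat that reading.

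Among 10 measured partners at the cell surface, 2 were at least 2-fold higher and 1 lower in Lgr5+ than in Lgr5− cells, 2 were higher and none lower than in Sox9+ cells, and none of 9 passed between the Lgr5− and Sox9+ libraries. Ptpro, a phosphatase, stood at 0.68 FPKM in Sox9+ cells, 11 FPKM in Lgr5+ cells and 0.76 FPKM in Lgr5− cells. Tspan12, which enhances norrin signalling through Fzd4, stood at 9.54, 24 and 8.35 FPKM, highest in Lgr5+ cells. Fzd4 did not share that order. Adgra2, listed under its older symbol Gpr124 and needed with Reck for signalling by Wnt7a and Wnt7b, stood at 4.32, 2.74 and 7.8 FPKM.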

How the data were processed

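Each of the 3 libraries was built, per the labels' protocols, with a SMARTer ultra-low-input kit from 10 ng of RNA. The submitters' processing notes name HISAT2 and mm10 (GRCm38). Which program and annotation gave the expression values is not given in the sources used here. Values were deposited as FPKM for each gene symbol, computed by the authors and given to 2 decimals, with no read counts. A search for the step of 1 fragment in low values scored at most 0.178 on a scale where 1 is perfect, so depth was not recovered.

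Log2 ratios of FPKM + 1 were computed for every gene in 3 pairs of libraries (pandas 2.3.3, numpy 2.4.6) and checked on simulated data. Genes were measured from 1 FPKM in the higher library of a pair, and different from 2-fold. Groups followed the labels. All 34 members were accounted for. Those under 1 FPKM everywhere were given by range, and up to 3 genes of each pathway list past 2-fold were named, largest fold first. Others named for context were picked after their values were seen. The members and lists were chosen with earlier results of these data known. Gene spans are from GENCODE M21. Alternatives were other pseudocounts, minimums and scalings.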

Additional observations from a re-analysis of the deposited data

How the results depend on the processing

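Settings were changed one at a time, with 8 alternatives. Among 69 log2 ratios of measured members, 60 kept their sign in all alternatives, and the 9 that did not were 0.12 or less in size as reported. Only the scalings could change a sign, since another minimum or pseudocount cannot. No member past 2-fold changed sign. Between Lgr5+ and Lgr5− cells the count of members past 2-fold was 3 or 4 in every setting, and the members' median log2 ratio moved from 0.08 to −0.04 at a minimum of 5 FPKM, 0.25 in TPM and −0.07 with upper quartile. Between Lgr5+ and Sox9+ cells the count moved from 2 to 4 with a pseudocount of 0.1 FPKM, 4 with 0.5 FPKM, 5 in TPM and 4 with the sum without ribosomal RNA precursor and haemoglobin genes, and the median from −0.04 to 0.1 in TPM. The added members were among Wnt5a, Wnt6 and Wnt9a. Between Lgr5− and Sox9+ cells the median moved from −0.19 to −0.07 in TPM and −0.06 with the latter sum. The scalings shifted the median of all genes by −0.15 (upper quartile, Lgr5+ against Lgr5−) to 0.14 (TPM, Lgr5+ against Sox9+). They also changed the background: 2.82% higher and 2.55% lower between Lgr5+ and Lgr5− cells with upper quartile, 7.32% and 3.98% between Lgr5+ and Sox9+ cells in TPM, and 3.91% and 3.93% between Lgr5− and Sox9+ cells with the sum without those genes. No paired analysis was possible because each group has 1 library, and for the same reason no library could be left out. Members under 1 FPKM cannot be ranked, since 1 library of unknown depth gives them no error.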
